A study of Mus musculus with 2 samples.

Results

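The 9 genes described here encode enzymes that make serine, pass its carbon onto folate and use that carbon to make thymidylate: Phgdh, Psat1, Psph, Shmt1, Shmt2, Mthfd1, Mthfd1l, Mthfd2 and Tyms. They were taken by name from the GENCODE M21 annotation, and all 9 were found among the 43346 Ensembl genes of both gene tables, with 43 annotated transcripts in the transcript tables. The names were set by pathway and not by a measured threshold, with earlier results of these data known. The tissue was forebrain of healthy B6NCrl mouse embryos (C57BL/6NCrl) at 11.5 days, males and females mixed, with no mutation and no treatment. The study held 1 group of 2 total RNA libraries, replicate 1 from a pool of 109 embryos and replicate 2 from a pool of 88. Each library began with 10 ng of mirVana-extracted RNA longer than 200 nucleotides, carried spike-in RNAs and followed a SMART-seq protocol, in which RNA is copied and amplified before sequencing.

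Phgdh, Psat1 and Psph convert a glycolytic intermediate into serine in the cytosol in successive reactions. Serine hydroxymethyltransferases then cut serine into glycine and a carbon unit bound to tetrahydrofolate. The same chemistry runs in mitochondria, where the carbon leaves as formate, and in the cytosol, where it is built into thymidylate and purines. Folate-dependent carbon transfer is known for its place in neural tube closure, and loss of Phgdh in mice is known to disturb brain growth.

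Levels are in TPM, a relative abundance scaled for transcript length, and a value with ± is the mean and SD over both libraries (n = 2). The gene tables held 23165260 expected counts in replicate 1 and 33597028 in replicate 2, and spike-ins took 12.97% and 12.69% of all TPM, so mouse genes are understated by about that share. The forebrain markers Lhx2, Emx2, Six3, Dlx2 and Pax6 all reached 1 TPM in both libraries, with means from 13.68 (Six3) to 146.6 TPM (Lhx2). All of the progenitor (5), newborn neuron (4), erythroid (6), mesenchyme (5), endothelial (4) and microglia or macrophage (4) markers also reached it, so the libraries held RNA of several cell types. Of 4 liver markers 1 reached it, and Alb was at 0. In such bulk RNA, fewer cells of a type and less RNA per cell cannot be told apart.

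All 9 enzymes were above the median of all protein-coding genes, over a wide range. Phgdh was the highest and Mthfd1l the lowest, 21.3 ± 1.93 times apart. The lowest member, Mthfd1l, still stood at the 63.5 percentile of 21474 protein-coding genes, of which 58.6% reached 1 TPM in both libraries and whose median was 3.95 TPM. Among the detected genes alone the median was 20.6 TPM, above Mthfd1l and below the other 8. The order by mean ran Phgdh, Tyms, Psat1, Shmt2, Mthfd1, Shmt1, Psph, Mthfd2, Mthfd1l. Psph and Mthfd2 overlapped between libraries and cannot be ranked. Mthfd1 and Shmt1 did not overlap by library (57.25 TPM for the lower Mthfd1 value against 56.72 for the higher Shmt1 value), but the credibility bounds in the tables did. Such bounds lie around the deposited posterior mean TPM and not the TPM quoted here. For Phgdh the quoted TPM was above its own upper bound in both libraries (287.3 and 261.3). The other 6 pairs of neighbours were separate by both measures, from 1.26-fold (Phgdh over Tyms) to 2.8-fold (Mthfd2 over Mthfd1l). This order holds for whole genes. When noncoding transcripts are set aside, Tyms changes its place. Shmt1 (37.03 TPM in replicate 1 and 37.51 in replicate 2) then overlaps Psph (35.28 and 37.76) between libraries.

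**Figure D1:**
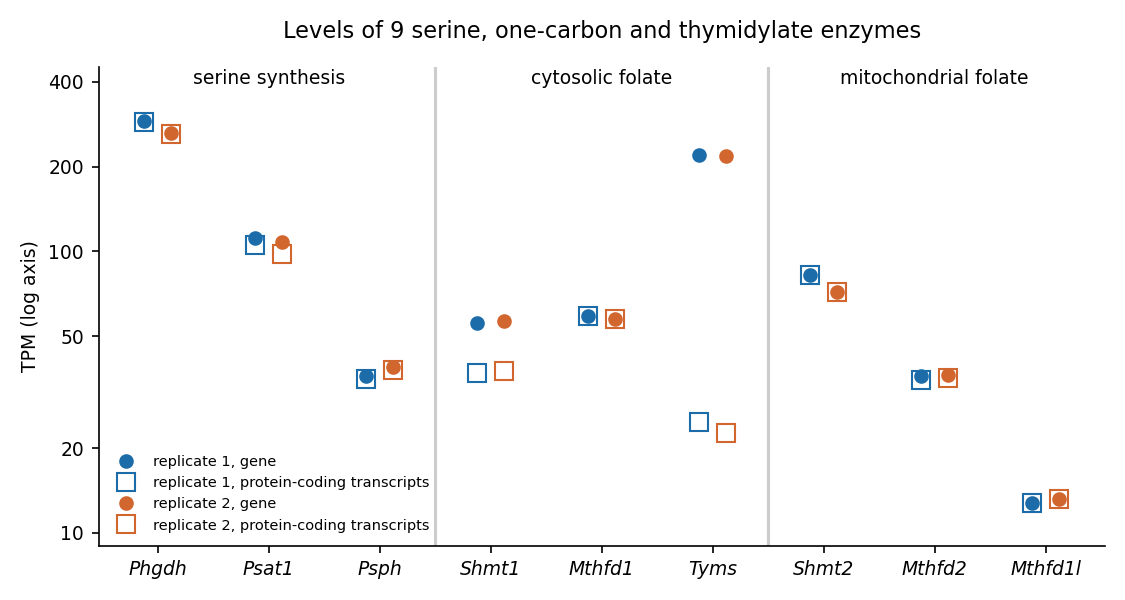
TPM (log axis) of each enzyme in replicate 1 (blue) and replicate 2 (orange), as whole genes (filled circles) and as annotated protein-coding transcripts alone (open squares), grouped by pathway step. Phgdh is the highest in both libraries at 290.36 and 262.21 TPM, the circles and squares lie far apart for Tyms (219.1 against 23.59 TPM on average) and less so for Shmt1, and they nearly coincide for the other 7.

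Within serine synthesis the level was lower at each successive step of the pathway. Phgdh, which oxidises 3-phosphoglycerate in the step that commits it to serine, measured 290.36 TPM in replicate 1 and 262.21 in replicate 2 (276.3 ± 19.9), the 97.8 percentile of protein-coding genes. Psat1, the transaminase that follows, measured 111.83 and 107.62 TPM (109.7 ± 2.98). Psph, the phosphatase that releases free serine, measured 35.95 and 38.69 TPM (37.32 ± 1.94). The groups of values did not overlap between any of these genes. Phgdh was 2.52 ± 0.113 times Psat1, and Psat1 was 2.95 ± 0.233 times Psph. The genes lie apart in GRCm38, with Phgdh (ENSMUSG00000053398.7) at chr3:98313170-98339990, Psat1 (ENSMUSG00000024640.5) at chr19:15904678-15947337 and Psph (ENSMUSG00000029446.10) at chr5:129765558-129787449, all on the minus strand.

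In the cytosolic folate branch, Shmt1 and Mthfd1 were near each other as whole genes and Tyms stood above them. With protein-coding transcripts alone Tyms (23.59 TPM) was below both, and Shmt1 (37.27) was below Mthfd1 (57.97). Shmt1, the cytosolic serine hydroxymethyltransferase, measured 55.58 TPM in replicate 1 and 56.72 in replicate 2 (56.15 ± 0.806). Mthfd1, a single protein with dehydrogenase, cyclohydrolase and formate-tetrahydrofolate ligase activities, measured 58.69 and 57.25 TPM (57.97 ± 1.02). Tyms, which methylates dUMP to dTMP for DNA synthesis, measured 219.33 and 218.83 TPM (219.1 ± 0.354). Its libraries were the closest of the 3 in relative terms, and it sat at the 97.1 percentile. Shmt1 (ENSMUSG00000020534.10) lies at chr11:60788104-60811718 on the minus strand, Mthfd1 (ENSMUSG00000021048.6) at chr12:76255298-76319803 on the plus strand, and Tyms (ENSMUSG00000025747.8) at chr5:30058202-30073617 on the minus strand.

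In the mitochondrial branch, levels were again lower at each step from serine to formate. Shmt2, the mitochondrial serine hydroxymethyltransferase, measured 82.27 TPM in replicate 1 and 71.9 in replicate 2 (77.09 ± 7.33). Mthfd2, the mitochondrial dehydrogenase and cyclohydrolase typical of embryonic and dividing cells, measured 36.09 and 36.46 TPM (36.28 ± 0.262). Mthfd1l, the ligase that releases formate, measured 12.81 and 13.15 TPM (12.98 ± 0.24). No library value of one gene reached that of the next. Shmt2 (ENSMUSG00000025403.4) lies at chr10:127517123-127522444 on the minus strand, Mthfd1l (ENSMUSG00000040675.13) at chr10:3973118-4167081 on the plus strand and Mthfd2 (ENSMUSG00000005667.6) at chr6:83305691-83325908 on the minus strand.

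The enzymes of both compartments are related in sequence and differ at their start, where a protein bound for mitochondria carries a targeting stretch that is typically rich in arginine and lysine and poor in acidic residues. The first 30 codons of the first-listed coding transcript of each folate enzyme compared below are shown for that reason, read from GENCODE M21 transcripts (GRCm38), 5′ to 3′, with arginine and lysine codons in capitals. The spans given with them are genomic and include an intron for Shmt1, Shmt2 and Mthfd1.
Shmt1 (cytosolic, chr11:60804397-60807023, minus strand): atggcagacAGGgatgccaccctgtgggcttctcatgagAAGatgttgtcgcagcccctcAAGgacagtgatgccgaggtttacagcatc
Shmt2 (mitochondrial, chr10:127521059-127522320, minus strand): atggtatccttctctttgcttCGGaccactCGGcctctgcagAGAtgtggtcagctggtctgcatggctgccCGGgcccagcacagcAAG
Mthfd1 (cytosolic, chr12:76255504-76270466, plus strand): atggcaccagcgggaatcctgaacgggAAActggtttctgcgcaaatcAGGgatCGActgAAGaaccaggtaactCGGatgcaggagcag
Mthfd1l (mitochondrial, chr10:3973255-3973344, plus strand): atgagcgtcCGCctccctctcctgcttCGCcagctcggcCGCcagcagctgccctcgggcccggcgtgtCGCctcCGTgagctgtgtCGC
Mthfd2 (mitochondrial, chr6:83317440-83317529, minus strand): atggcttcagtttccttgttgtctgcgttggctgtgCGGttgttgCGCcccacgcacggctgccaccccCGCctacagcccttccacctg
Mthfd2l (mitochondrial, chr5:90931318-90931407, plus strand): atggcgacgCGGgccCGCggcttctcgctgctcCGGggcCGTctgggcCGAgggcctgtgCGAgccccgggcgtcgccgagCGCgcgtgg
Shmt2 had 5 arginine or lysine codons and 0 aspartate or glutamate codons in this window, whereas Shmt1 had 3 and 6. Mthfd1l had 6 and 1, against 5 and 2 in Mthfd1. Mthfd2 had 3 and 0, and Mthfd2l, also mitochondrial, 7 and 1. The arginine and lysine count of Mthfd2 was thus equal to that of cytosolic Shmt1 and below that of cytosolic Mthfd1. The windows are a description of the annotated sequence, and the place of the proteins in the cell was not measured.

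The related enzymes shared only short runs of identical sequence. Over their aligned coding sequences, Shmt1 and Shmt2 were 64.6% identical with a longest shared run of 19 bases, Mthfd1 and Mthfd1l 63.5% with a run of 20, and Mthfd2 and its paralog Mthfd2l 68.8% with a run of 20. Expected counts, which divide a read among all the transcripts it could come from, were whole numbers (within 0.005) in both libraries for 7 of the 9 members, the exceptions being Phgdh and Shmt1.

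Shmt2 exceeded Shmt1 in both libraries, whereas Mthfd2 and Mthfd1l were below Mthfd1. Shmt2 over Shmt1 was 1.48 in replicate 1 and 1.27 in replicate 2, with exact Clopper-Pearson 95% intervals of 1.4 to 1.57 and 1.2 to 1.33, which cover counting error only. Those intervals do not meet, so the libraries differed from each other in this ratio by more than counting error, while both stayed above 1. Mthfd2 over Mthfd1 was 0.615 (0.573 to 0.66) and 0.637 (0.6 to 0.675), and Mthfd1l over Mthfd1 was 0.218 (0.201 to 0.237) and 0.23 (0.214 to 0.246). These 2 ratios stayed below 1 in each library, with overlapping intervals. Within mitochondria, Mthfd2 was 2.82 (2.56 to 3.1) and 2.77 (2.56 to 3) times Mthfd1l, the enzyme of the following step. Mthfd2 was also above Mthfd2l, the isozyme better known from adult tissue, at 1.28 (1.17 to 1.4) and 1.25 (1.16 to 1.34). Each of these differences in log2 was larger than the SD between the libraries. With 2 libraries no exact test over samples can reach 0.05, and no p-value is given.

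All 6 cytosolic members summed to 756.5 ± 21.5 TPM against 126.3 ± 6.83 for the 3 mitochondrial ones, and to 531.4 ± 25.5 against 125.3 ± 6.59 with protein-coding transcripts alone. These sets differ in size, and the cytosolic one includes the serine synthesis enzymes Phgdh, Psat1 and Psph, which have no mitochondrial counterpart in the list. Within the folate branches the summed comparison depended on Tyms. The 3 mitochondrial folate genes summed to 0.393 times the 3 cytosolic ones in replicate 1 and 0.365 times in replicate 2 (mean log2 ratio -1.40 ± 0.08). With protein-coding transcripts alone the direction turned, to 1.08 and 1.03 (log2 0.08 ± 0.05). It also turned when Tyms, which has no mitochondrial counterpart in the list, was left out of the cytosolic sum (mean ratio 1.11, log2 0.15 ± 0.08), a comparison chosen after the values were seen. With both changes it was 1.31 (log2 0.40 ± 0.07). The data thus give no fixed order of the summed folate branches, while Shmt2 above Shmt1 and both Mthfd1l and Mthfd2 below Mthfd1 held with all transcripts and with coding transcripts (1.04, -2.16 and -0.72 as mean log2 ratios of the latter).

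**Figure D2:**
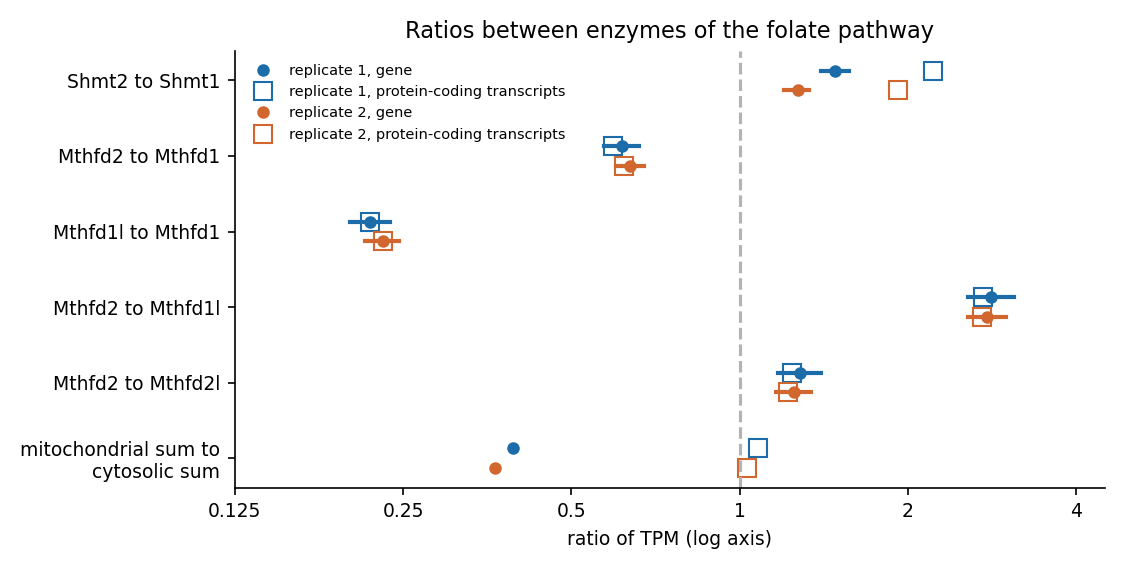
Ratios of TPM (log axis) between folate enzymes in replicate 1 (blue) and replicate 2 (orange), for whole genes (filled circles, with exact 95% counting intervals as bars where the ratio is of single genes) and for protein-coding transcripts (open squares); the dashed line marks equal levels. Shmt2 to Shmt1 lies right of the line, the ratios to Mthfd1 lie left of it, and the summed ratio moves from 0.393 and 0.365 to 1.08 and 1.03 when noncoding transcripts are set aside.

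Most Tyms signal was assigned to transcripts not annotated as coding for the enzyme. Tyms-201, its only annotated protein-coding transcript, measured 24.65 TPM in replicate 1 and 22.53 in replicate 2 (23.59 ± 1.5), 10.8% of the gene. Tyms-205, annotated as a target of nonsense-mediated decay, which removes messages with an early stop codon, held 40.2% ± 1.08 (39.5% and 41%). Tyms-202 and Tyms-206, annotated as retaining an intron, held 28.4% ± 0.664 and 13.9% ± 1.26, Tyms-204, a longer decay transcript, 5.33% ± 0.457 and Tyms-203 1.38% ± 1.46. The shares were close between the pools except for Tyms-203 (2.41% and 0.343%), whose credibility bounds met. Those of Tyms-206 did not meet (25.53 to 29.53 TPM in replicate 1, 29.79 to 33.34 in replicate 2). These types are those of M21, in which Tyms-205 is 618 bases long (797 in the deposited tables) and Tyms-206 is 2723 (2045 in the tables), so their structures differ between the releases. Among 8461 protein-coding genes at 10 TPM or more in both libraries, the median coding share was 96.8%, and 1.0% of them lay below Tyms.

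The Tyms level therefore rests on how short transcripts are weighed. Tyms-205 and Tyms-202 are 797 and 816 bases long in the deposited tables against 3163 for Tyms-201, so each read counts for more TPM in the short ones. By expected counts, which are not divided by length, Tyms-201 held 25.5% of the gene. The annotated Tyms-201 has 70 bases before a coding sequence of 921 and 2172 after it. As background, the main mouse Tyms message is known to end at its stop codon, a form that none of these annotated transcripts has. Dividing all Tyms counts (4303 and 6317) by the effective length of Tyms-201 gave 92.55 ± 0.991 TPM, between the gene value of 219.1 and the coding value of 23.59, whose place among the 9 genes was 2 and 8. This division was chosen after the values were seen. A message that ended at the stop codon would be shorter than Tyms-201, and the same counts over a shorter length give more TPM. The values above therefore set no upper bound on the Tyms level. Which value stands nearest to the amount of translatable message was not tested.

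Shmt1 also carried noncoding signal, though less. Shmt1-201 measured 37.03 TPM in replicate 1 and 37 in replicate 2 and held 65.9% ± 0.984 of the gene. Transcripts annotated as retaining an intron held 18% and 26.3%, and processed transcripts, which lack an open reading frame, 14.6% and 7.51%. The credibility bounds of the noncoding Shmt1 transcripts overlapped between libraries, so a different division of the rest is not resolved. Of the 8461 genes above, 14.5% had a smaller coding share than Shmt1.

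**Figure D3:**
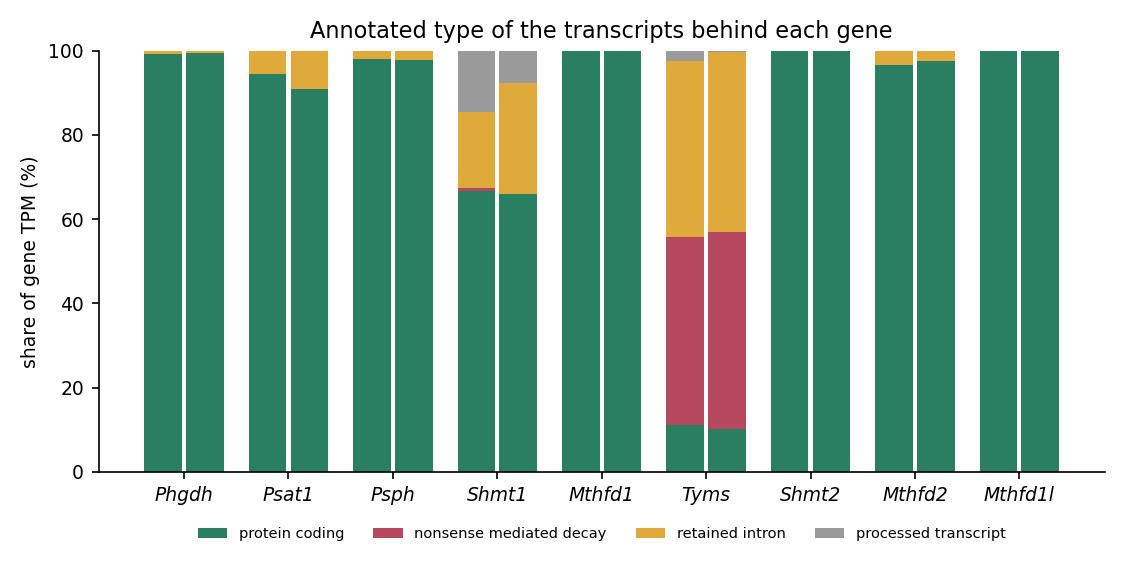
Share of each gene's TPM (%) by annotated transcript type, replicate 1 as the left and replicate 2 as the right bar of each pair. Protein-coding transcripts (green) hold 11.2% and 10.3% of Tyms and 66.6% and 66.1% of Shmt1, and over 90% of the other 7 genes in either library.

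The other 7 genes were mostly made up of coding transcripts, and some were divided among several. Shmt2 and Mthfd1 each had 1 annotated transcript. Phgdh-201 held 99.2% ± 0.303 of its gene, Mthfd2-201 97.1% ± 0.665 and Psph-201 93.7% ± 3.43. In Psat1 and Mthfd1l the estimated shares differed between the pools. Psat1-201 held 89.5% of the gene in replicate 1 and 70.2% in replicate 2. Psat1-205, also coding but with 1050 of the 1110 coding bases of Psat1-201 in its exons, held 4.87% and 20.6%. The credibility bounds in the tables did not meet for Psat1-201 (89.07 to 101.5 TPM in replicate 1, 66.72 to 83.83 in replicate 2) and met narrowly for Psat1-205 (0.994 to 10.7 TPM and 9.43 to 28 TPM). Mthfd1l-202 held 82.8% and 62.6% and Mthfd1l-201 16.4% and 36.1%, and both contain the same 2931 coding bases. Their credibility bounds met between libraries (0.358 to 4.13 and 3.14 to 6.20 TPM for Mthfd1l-201, 7.97 to 11.96 and 6.43 to 9.54 for Mthfd1l-202), so this difference in shares is not resolved.

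Few counts were assigned to pseudogene copies of the members, and exons of some members overlap other genes. Transcripts of 21 annotated genes matched the coding part of Phgdh at 90% identity or more over at least 200 bases, and the 10 of them in the tables held 38.2 and 72.09 counts, 0.604% of those of Phgdh. The largest, Gm7901, is 98.7% identical and measured 1.71 ± 0.438 TPM. Psat1 and Shmt2 each had 1 such copy (Gm12611 and Gm15544), at 0 counts in both libraries. Transcripts of 179 genes matched some part of Tyms at the same cut. Only 1 of them matched its coding part, and that gene had no entry in the deposited tables. In GENCODE M21, exons of Psph share 452 bases with Cct6a on the opposite strand, a chaperonin subunit at 494.06 and 493.44 TPM, and exons of Shmt1 share 184 with Smcr8, at 8.64 and 9.09 TPM. Strand handling is not given in the sources used here, so reads from these stretches cannot be told apart by strand. Expected counts were whole numbers for Psph (745 and 1206), so they show no read divided with another gene, and fractional for Shmt1 (1857.55 and 2632.07). Psph-201 was 1488 bases long in the deposited tables and 1733 in M21, and lengths also differed for Shmt2-201, Mthfd1-201 and Mthfd2l-201.

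The pools differed in 3 of the 9 genes, all lower in replicate 2 and all by little. Shmt2 was lower by a log2 difference of -0.19 (replicate 2 at 0.876 times replicate 1, adjusted p = 4.79e-06), Phgdh by -0.14 (0.908 times, adjusted p = 5.2e-09) and Psat1 by -0.11 (0.929 times, adjusted p = 0.00295), by an exact two-sided binomial test with Benjamini-Hochberg adjustment over all 18297 genes tested. Across those genes the same test called 23.4% in either direction and 10.9% as lower in replicate 2, and it called 34.8% of the 8779 with 1000 or more counts summed, as every member had. A count of 3 in 9 is thus near the background. Psph was the only member with a log2 difference above 0.1 in the other direction, at 0.17 (adjusted p = 0.0564). The 5 remaining members differed by at most 0.03 in either direction (adjusted p from 0.562 to 0.826).

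With 1 library on each side, this test compares the libraries and not a condition, and its error is that of counting. edgeR's exact test was also run with a common coefficient of variation of 7.63% between pools, estimated from these same 2 libraries taken as 1 group. It called 0 members (0 at an unadjusted p under 0.05, lowest 0.223) and 220 genes in all (1449 at an unadjusted p under 0.05). The difference tested is itself part of that coefficient, so fewer calls follow largely by construction and are no independent check. With spike-in scaling, which shifted all log2 differences by 0.04, Psat1 was no longer called (-0.07, adjusted p = 0.0809) and Psph was (0.20, adjusted p = 0.0126). The split of all calls into higher and lower in replicate 2 went from 2298 and 1991 to 3224 and 1345. Newborn neuron markers summed to 721.9 TPM in replicate 1 and 648.6 in replicate 2, mostly through Tubb3 (506.33 and 439.19). Tubb3 and Elavl3 (35.99 and 31.49) were called lower by the main binomial test, while Dcx (63.74 and 62.74) and Stmn2 (115.87 and 115.2) were not called. Erythroid markers summed to 12780 and 13840. Progenitor markers summed to 1857 and 1880, of which Vim made up 1010.51 and 1016.09. Among the others, Sox2 (47.96 and 40.7), Nes (76.85 and 70.6) and Hes5 (250.9 and 247.14) were lower in replicate 2, and Fabp7 (470.66 and 505.53) was higher. The main binomial test called Sox2, Nes and Fabp7 but not Hes5 or Vim. The part of these cell types in the differences of Shmt2, Phgdh and Psat1 was not tested.

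**Figure D4:**
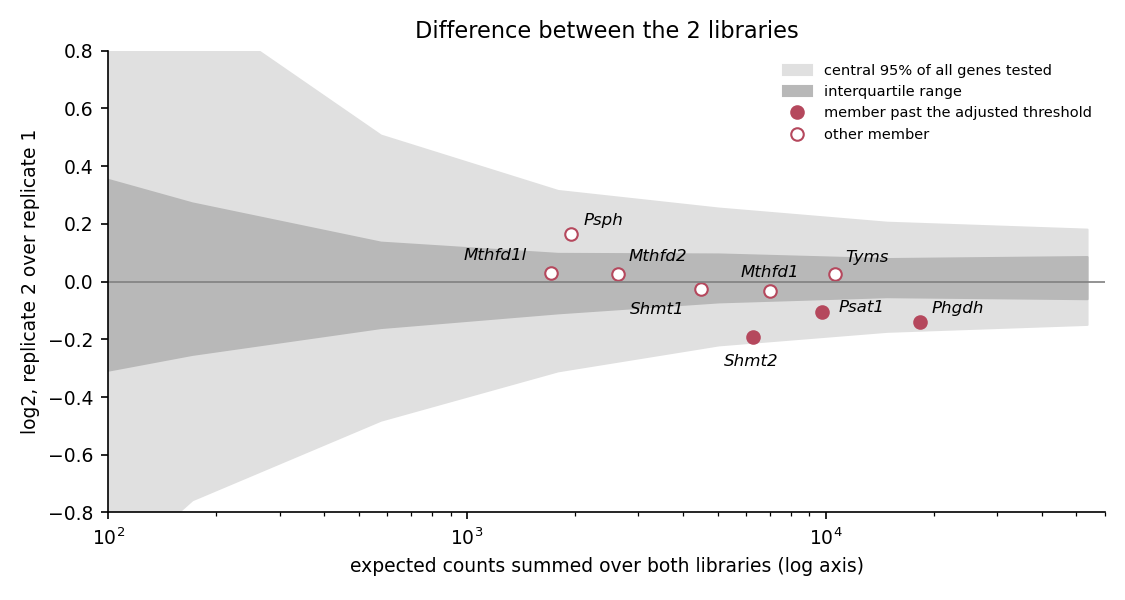
Log2 difference of replicate 2 over replicate 1 for the 9 enzymes against their summed expected counts (log axis), over the central 95% (light) and the interquartile range (dark) of all genes tested with similar counts. Filled points passed the adjusted threshold: Shmt2 at -0.19, Phgdh at -0.14 and Psat1 at -0.11, all inside the light band.

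Around the 9 enzymes, 61 genes of 8 further lists were examined, of which 54 reached 1 TPM in both libraries. Of 58 tested, 7 were higher and 4 lower in replicate 2 by the same binomial test, which called 23.4% of all genes. Of 10 other folate-cycle genes 8 reached 1 TPM, with a median of 16.4 TPM. The highest was Mthfd2l, the paralog of Mthfd2, at 28.75 ± 0.728. Aldh1l1, which oxidises the formyl group to carbon dioxide in the cytosol, was low at 1.91 and 0.93 TPM. Its counts (59.95 and 67) gave a log2 difference of -0.37, which the binomial test did not call. Ftcd, a histidine-breakdown enzyme typical of liver, was at 0 and 0.03 TPM.

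RNA of most folate and serine transport genes was present. Of 5 folate transport genes 4 reached 1 TPM, led by the reduced folate carrier Slc19a1 (27.31 ± 0.198), the proton-coupled carrier Slc46a1 (14.55 ± 0.0212) and the folate receptor Folr1 (8.65 ± 0.502), with Folr2 at 0.8 and 0.97 TPM. Among 10 genes of serine transport and use, 9 reached 1 TPM. Slc38a2, a small neutral amino acid transporter, was the highest at 156.8 ± 14.4, Sfxn1, which carries serine into mitochondria, stood at 72.94 ± 1.1, within the library range of Shmt2, and Sptlc2, of sphingolipid synthesis, at 43.63 ± 2.91. Cbs, which draws serine into cysteine synthesis, was at 0.99 and 0.79 TPM.

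RNA for another mitochondrial source of carbon units, glycine cleavage, was present too. All 4 glycine cleavage genes reached 1 TPM: Gcsh (128.7 ± 3.87), Dld (115.3 ± 1.9), which also serves other dehydrogenase complexes, Gldc (40.58 ± 1.07), the glycine decarboxylase, and Amt. None of the 4 passed the library test, which called 23.4% of all genes and 34.8% of those with 1000 or more counts summed. A list of 4 is too small to set apart from those shares. Gldc stood at 0.528 ± 0.0363 times Shmt2.

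Of the routes that use the carbon, the thymidylate partners were all expressed, and the methionine cycle held both high genes and genes at 0. All 9 genes of deoxynucleotide supply reached 1 TPM, with a median of 120 TPM, led by Rrm2, a ribonucleotide reductase subunit (515.1 ± 18.5), Dut, which makes dUMP for Tyms (220.0 ± 9.79), and Dtymk, which phosphorylates dTMP (216.8 ± 7.97). In the methionine cycle 5 of 7 genes reached 1 TPM. Mat2a, the S-adenosylmethionine synthetase of most tissues, was at 324.6 ± 5, its partner Mat2b at 74.28 ± 2.75 and Ahcy at 74.66 ± 2.58. Mat1a and Bhmt, typical of adult liver, had 0 counts in both libraries, which allows up to 3 counts in each.

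**Figure D5:**
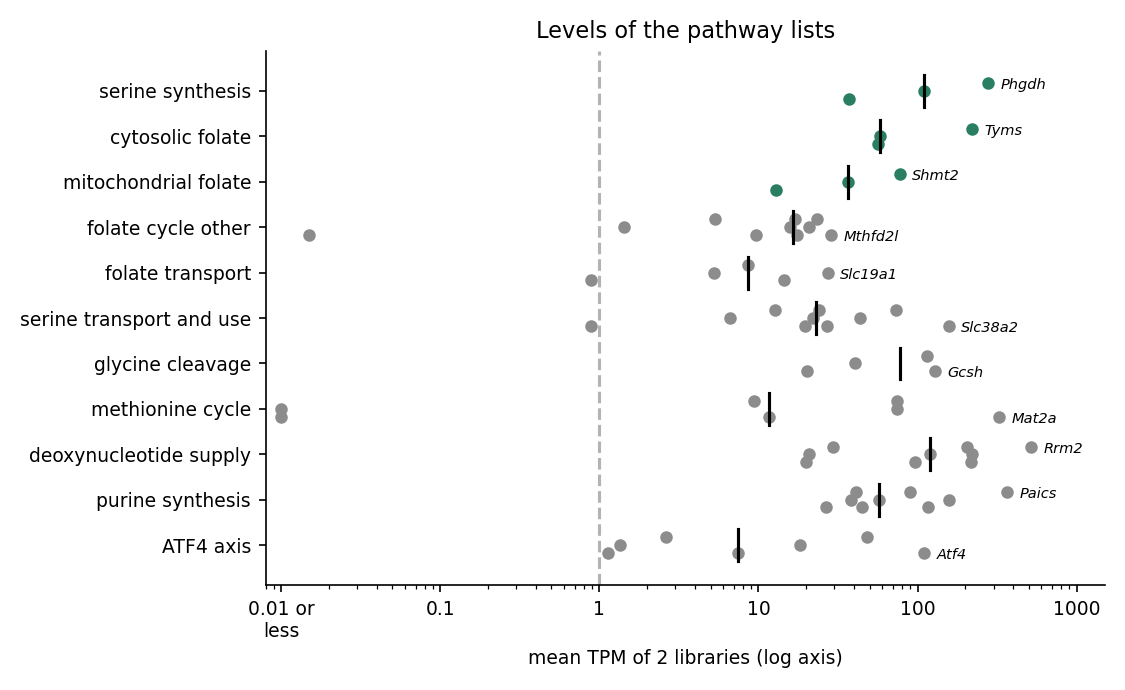
Mean TPM of 2 libraries (log axis) for each gene of the pathway lists, with the 9 enzymes in green, other genes in grey, the list median as a black bar, the highest gene of each list named and a dashed line at 1 TPM; points are spread vertically only to be seen apart. All green points lie right of the line, and Mat1a and Bhmt are drawn at the left edge because they had 0 counts.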

How the data were processed

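The members and gene lists were chosen with earlier results of these data known. Expected counts, TPM and FPKM per gene and transcript are the values the authors deposited, with posterior mean TPM and credibility bounds of unstated level per the file headers. The reference was mm10 with GENCODE M4, per the deposited text notes; no source used here gives the aligner, quantifier, versions, read filters or strand handling. No columns of other samples were used.

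Names, types and sequences came from GENCODE M21 (GRCm38) by stable identifier; 42462 of 43346 genes matched. Spike-in (97) and numeric (26248) entries stayed out of tests. Spike-ins held 5.66% and 5.49% of counts. Expected counts were rounded, scaled by TMM factors of 1.00 and 0.997 from edgeR 4.0.16 (run in R 4.3.3), and genes with 10 or more counts summed were compared by an exact binomial test (Benjamini-Hochberg, 0.05); log2 differences used a prior of 0.5 counts. DESeq2 1.42.0 size factors were an alternative. Counts were also simulated with counting error alone and no variation between pools. Of 200 genes changed 2-fold, drawn from those with 100 or more counts summed, 192 were recovered, with 7 false calls among 18263 genes tested. The rate of false calls between real pools was not estimated. Copies were found with blastn 2.17.0, and paralogs aligned with biopython 1.88. Replicates are separate pools of embryos; p-values measure only the spread of counting between these libraries, and no molecular identifiers are described. Named genes are all members and, per other list, the 3 highest, those under 1 TPM in a library and those called at 1.5-fold or more; transcripts were named at 20% or more of their gene, and others (Shmt1, Tyms and the 0-count copies) after their values were seen. A few genes under this rule are not reported here.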

Additional observations from a re-analysis of the deposited data

How the results depend on the processing

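Leaving out replicate 1 or 2 only returns the value of the other library, so it is no separate check. Every ratio had the same direction in both libraries, with log2 values from 0.34 to 0.57 (Shmt2 to Shmt1), -0.70 to -0.65 (Mthfd2 to Mthfd1), -2.20 to -2.12 (Mthfd1l to Mthfd1), 1.47 to 1.49 (Mthfd2 to Mthfd1l), 0.32 to 0.35 (Mthfd2 to Mthfd2l) and -1.45 to -1.35 (summed mitochondrial to cytosolic). The library test has 1 library on each side and cannot be repeated without one. The summed ratio reversed with protein-coding transcripts alone (0.075), without Tyms (0.15) and with both (0.40), and was -0.63 with all counts over the effective length of the first-listed coding transcript. That last choice, made like the omission of Tyms after seeing the data, also moved Shmt2 to Shmt1 to 0.82, Mthfd2 to Mthfd1l to 1.41 and Mthfd2 to Mthfd2l to 0.30. Coding transcripts alone gave 1.04 (Shmt2 to Shmt1), -0.72 (Mthfd2 to Mthfd1), 1.44 (Mthfd2 to Mthfd1l) and 0.29 (Mthfd2 to Mthfd2l). A pseudocount of 1 TPM gave -2.08 (Mthfd1l to Mthfd1) and 1.42 (Mthfd2 to Mthfd1l), and posterior mean TPM gave 0.37 (Mthfd2 to Mthfd2l). By expected counts the coding share was 25.5% for Tyms and 85.2% for Shmt1. edgeR's exact test, with a common dispersion estimated from these same 2 libraries, lowered the calls from 4289 to 220 genes and from 3 to 0 members. The other 4 settings called 3 or 4 members. With a minimum of 100 counts Psph was called too (adjusted p = 0.0466, exact binomial test with Benjamini-Hochberg adjustment). The cause of these changes was not tested beyond the settings' own construction. Depth limited little here, since each member had 695 counts or more per library.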

Other observations

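The purine pathway, which takes carbon units as formyl-tetrahydrofolate, was expressed in full: 9 of 9 genes reached 1 TPM in both libraries, with a median of 57 TPM. The highest were Paics, of the middle steps, at 364.7 ± 3.54 TPM, Impdh2, which leads to guanine nucleotides, at 157.8 ± 0.891, and Adsl, the adenylosuccinate lyase, at 116.6 ± 0.502 (SD, n = 2). By the binomial test 2 of the 9 were higher and 2 lower in replicate 2, against 23.4% of all genes called and 34.8% of those with 1000 or more counts.

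Of 7 genes of the ATF4 axis, the transcription factor known to induce serine and mitochondrial folate enzymes under amino acid shortage and some of its known targets, 6 reached 1 TPM in both libraries, with a median of 7.47 TPM. Atf4 measured 110.4 ± 2.78 TPM, Asns, the asparagine synthetase, 47.84 ± 0.707 and Ddit3 18.15 ± 1.12. Chac1, which degrades glutathione, was at 1.57 and 0.71 TPM (37 and 24 counts), a log2 difference of -1.14 (adjusted p = 0.0145, exact binomial test with Benjamini-Hochberg adjustment), and was the one gene among the pathway lists called at 1.5-fold or more. The relation of these levels to those of the 9 enzymes was not tested.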
